A study of Xenopus laevis with 15 samples.

Results

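The genes sox9, tgif2, znf703 and irx2 encode transcription factors that pattern early vertebrate ectoderm. Xenopus laevis carries a duplicated genome, and the endings .L and .S name the copies of a gene on its long and short subgenomes. Both copies of each gene were in the table, which gave 8 rows of 42638, and all 8 passed the filter on low counts that left 24052 genes. The set was chosen from measured values: sox9.S, tgif2.L, znf703.L, znf703.S and irx2.S were among the genes with an adjusted p-value under 0.05 in a comparison of 4 h with 0 h averaged over both stimuli. Their difference between those times is therefore described here without a test. The rows sox9.L, tgif2.S and irx2.L came in as the other copies of the same genes and are called the other copies below. Both copies of znf703 were chosen, so a copy under the threshold counted as chosen. The other copies are thus those that were not under it, and their lack of a call is part of the choice. RNA was sequenced from wild-type Xenobots, small self-moving bodies that heal from animal cap ectoderm cut at stage 9 and kept for 7 days at 14 °C, with 50 pooled per library. The 15 libraries form 5 groups of 3. The Ctrl group was taken before any stimulus. The extract groups received 10 µL of a homogenate of 3 blastula-stage embryos per 14 mL of medium and were taken immediately (0 h) or 4 h later. The ATP groups received 250 µM ATP, with 4 mL of medium given in the labels, and were taken at the same times. The volume of medium thus also differed between the stimuli. No 4 h group without a stimulus is analysed here, and elapsed time and a lasting effect of a stimulus cannot be told apart in any comparison of 4 h with 0 h or with Ctrl.

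Sox9 is an HMG-box factor of the SoxE subfamily, known for the formation of neural crest, ear placode and cartilage. Tgif2 is a homeodomain repressor of the TALE class, which binds activated Smad proteins and damps TGF-beta and nodal signalling. Znf703 is a zinc-finger co-repressor of the NET family, and in Xenopus it acts downstream of Pax3 and Zic1 in neural crest. Irx2 belongs to the Iroquois group of TALE homeodomain factors, which subdivide the neural plate and other epithelia. In the embryo sox9 and znf703 are best known from the border between epidermis and neural plate, while Xenobots are labelled as epidermal.

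Total expected counts per library ranged from 12583039 to 20325075, and ribosomal RNA took 20.1% to 43.3% of them. Levels below are read counts scaled to library size (CPM) with TMM factors, and they compare libraries within a gene, not genes with each other. The rows of the set held between 20 expected counts (tgif2.S) and 1162.73 (znf703.L) per library, so tgif2.S is the least precise. At extract 4 h, replicates 1 and 2 were more alike than any other replicate pair (Pearson correlation across genes 0.986, against 0.955 to 0.975). Summed as 1 sample, which leaves fewer samples, they gave an adjusted p-value under the threshold in 1 of the 5 chosen rows, znf703.L. The rows were chosen on this same comparison of 4 h with 0 h, so that call carries the choice and is not a test. The labelled epidermal identity was checked against markers, and krt12.4.S, a larval keratin, averaged 4050 CPM and itln1.L, a goblet cell lectin, 4400 CPM. Of 16 rows of a neural marker list, 6 averaged under 0.05 CPM, while syt1.L, a synaptotagmin gene, averaged 73.1 CPM and made up most of the summed level of 73.6 to 93.3 CPM. Of 24 rows of a blastula list, 11 averaged under 0.05 CPM, while cldn6.1.S and cldn6.1.L, claudin genes, averaged 17.3 and 6.22 CPM. In the goblet list otogl.L also averaged under 0.05 CPM. Summed levels of the multiciliated, ionocyte, goblet and basal cell lists overlapped between 0 h and 4 h, for example 670 to 779 CPM and 632 to 750 CPM for multiciliated cells. Most of the goblet sum was itln1.L, most of the basal sum krt12.4.S, and most of the multiciliated sum dnah9.S (424 CPM). These sums can thus hide changes in rows with lower levels. At an unadjusted edgeR p-value under 0.05 for 4 h against 0 h were 3 of 14 tested multiciliated rows, 1 of 11 ionocyte, 1 of 10 goblet and 2 of 12 basal rows. Of all genes 9.75% were, and none of these rows was called. In pooled tissue, fewer cells of a type and less RNA per cell cannot be told apart.

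All 8 rows were lower at 4 h than at 0 h, averaged over extract and ATP, as were 50.4% of all genes tested. The 5 rows that chose the set had log2 fold changes from -0.93 (tgif2.L) to -0.48 (irx2.S), and their 4 h libraries all lay below their 0 h libraries. Of all genes tested, 0.291% had their 4 h libraries below their 0 h libraries in this way. The other copies were lower too, at -0.49 for irx2.L, -0.44 for sox9.L and -0.37 for tgif2.S. No row among them passed edgeR's quasi-likelihood test over all genes, which follows from the choice, since a copy that passed would have been chosen. Reads that fit both copies of a gene may also be divided between them. Over the whole table this comparison called 14 genes, or 0.0582%, of which 12 were lower (0.0499%) and 2 higher (0.00832%). The 5 calls within the set are the choice itself. The last of them, irx2.S, had an adjusted p-value of 0.0465, and the next gene outside the threshold, tshz1.S, had 0.0570.

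**Figure D1:**
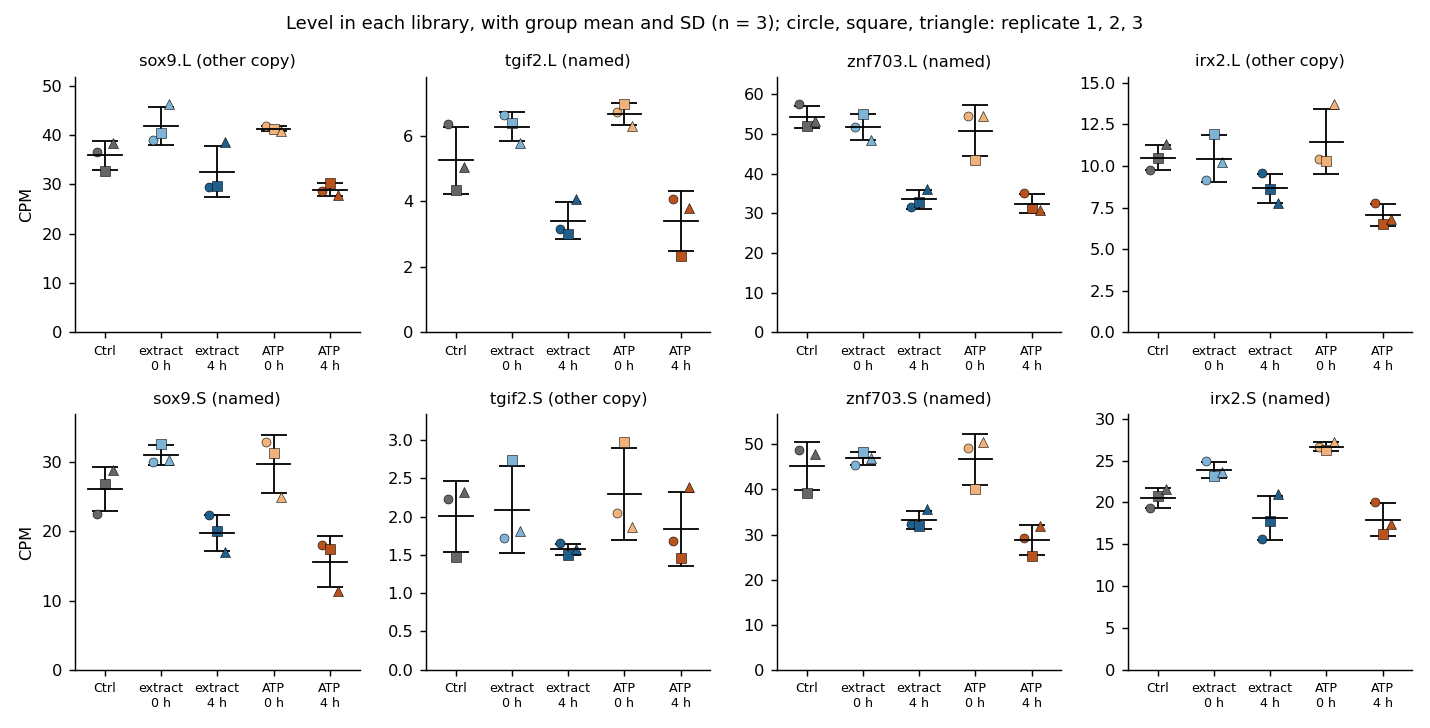
Level in CPM (vertical axes, each starting at 0) of the 8 rows in every library, with symbols for the replicate numbers and bars for group mean and SD (n = 3). In znf703.L the 4 h libraries lie at 30.9 to 36.3 CPM and the 0 h libraries at 43.5 to 55.0 CPM, and in tgif2.S the 0 h and 4 h libraries overlap.

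The copies of znf703 gave the most even picture, with Ctrl and 0 h at about the same level and 4 h below both. The Ctrl libraries of znf703.L held 57.5, 52.0 and 53.3 CPM. The extract libraries held 51.7, 55.0 and 48.5 CPM at 0 h and 31.5, 32.8 and 36.3 CPM at 4 h. The ATP libraries held 54.5, 43.5 and 54.6 CPM at 0 h and 35.3, 31.3 and 30.9 CPM at 4 h. All 6 libraries at 4 h were thus below all 9 others, and the groups taken at the same time overlapped each other. Averaged over stimuli, the 4 h level was 0.643 times the 0 h level, or -0.64 on the log2 scale (standard error 0.0792). The change was alike in size within each stimulus, at -0.63 after extract and -0.65 after ATP.

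The second copy, znf703.S, ran in parallel. Its means were 45.3 CPM ± 5.30 in Ctrl, 46.9 ± 1.48 at extract 0 h and 46.7 ± 5.68 at ATP 0 h (SD, n = 3 each), which overlapped. At 4 h they were 33.3 CPM ± 2.01 after extract and 28.8 ± 3.29 after ATP (SD, n = 3 each), and these groups did not overlap. The lowest extract library at 4 h held 32.0 CPM and the highest ATP library 31.8 CPM, so the gap between them is small. How many of all genes separated the stimuli in this way was not counted. The log2 fold change of 4 h against 0 h was -0.60 (standard error 0.0868). Both copies of znf703 were therefore lower at 4 h, but both chose the set, and reads that fit both copies may be divided between them.

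For sox9 the group means at 0 h lay above that of Ctrl and those at 4 h below it. The Ctrl libraries of sox9.S held 22.6, 26.9 and 28.9 CPM. At 0 h the extract libraries held 30.1, 32.7 and 30.3 CPM and the ATP libraries 33.0, 31.4 and 25.1 CPM. At 4 h the extract libraries held 22.3, 20.0 and 17.1 CPM and the ATP libraries 18.0, 17.4 and 11.4 CPM. Each 4 h library was below each Ctrl library, by a narrow margin for extract replicate 1. Extract 0 h was above Ctrl without overlap, while ATP replicate 3 lay within the range of Ctrl at 0 h. The ATP 4 h library with the same number was also the lowest of all at 4 h, but the labels do not say that same-numbered libraries share a batch. The 4 h level was 0.578 times the 0 h level, or -0.79 on the log2 scale (standard error 0.118).

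The other copy, sox9.L, had the same order of group means, with a smaller difference between 4 h and 0 h. Its level was 35.9 CPM ± 2.90 in Ctrl, 41.9 ± 3.83 and 41.3 ± 0.516 at 0 h after extract and ATP, and 32.6 ± 5.12 and 29.0 ± 1.26 at 4 h (SD, n = 3 each). Against Ctrl, its ATP libraries at 4 h were all lower. Extract 4 h overlapped Ctrl, with replicate 3 at 38.5 CPM above the highest Ctrl library at 38.3 CPM. Its 4 h libraries lay below its 0 h libraries without overlap, at 27.9 to 38.5 CPM against 38.9 to 46.2 CPM. Of the 24052 genes, 0.291% had every 4 h library below every 0 h library. The log2 fold change was -0.44 (standard error 0.0823) and a 95% interval from -0.61 to -0.26. Its unadjusted p-value was 8.28e-05, and its adjusted p-value of 0.0920 (edgeR quasi-likelihood, Benjamini-Hochberg) was above the threshold. With the replicate number as a block the adjusted p-value was 0.0436, DESeq2 gave 0.000981, and leaving out extract 4 h replicate 3, which at 38.5 CPM was the highest 4 h library, gave 0.0130. Over all alternatives the adjusted p-value ranged from 0.000404 to 0.447.

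Of the set, tgif2.L had the largest relative difference between the times and few reads behind it, with 45 to 126 expected counts per library. The Ctrl libraries held 6.35, 4.34 and 5.05 CPM. At 0 h the level was 6.64, 6.38 and 5.79 CPM after extract and 6.73, 6.95 and 6.30 CPM after ATP. At 4 h it was 3.16, 3.00 and 4.06 CPM after extract and 4.06, 2.34 and 3.80 CPM after ATP. The highest 4 h library of either stimulus held 4.06 CPM, below the lowest Ctrl library, whereas the 0 h groups overlapped Ctrl. The 4 h level was 0.525 times the 0 h level, or -0.93 on the log2 scale (standard error 0.146).

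The other copy of this Smad-binding repressor, tgif2.S, averaged 2.01 CPM ± 0.464 in Ctrl (SD, n = 3), 2.19 ± 0.533 at 0 h (SD, n = 6) and 1.71 ± 0.344 at 4 h (SD, n = 6). Its groups overlapped, except that the extract 4 h libraries, at 1.65 CPM or less, lay below both 0 h groups. The lowest library held 1.72 CPM at extract 0 h and 1.87 CPM at ATP 0 h. Of all genes 3.33% had every extract 4 h library below every extract 0 h library, and the share below ATP 0 h was not counted. The log2 fold change of 4 h against 0 h was -0.37 (standard error 0.206). The 95% interval ran from -0.81 to 0.06 and the edgeR adjusted p-value was 0.556, so a difference as large as that of sox9.S or as small as none lies within its error. The -0.93 of the chosen copy tgif2.L lies outside this interval, but that value has an error of its own and carries the choice. It had 20 to 54 expected counts per library.

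The Iroquois gene irx2 split between its copies in how 0 h compared with Ctrl. In irx2.S the Ctrl libraries held 19.3, 20.7 and 21.6 CPM. All 0 h libraries were higher, with 24.9, 23.1 and 23.6 CPM after extract and 26.6, 26.2 and 27.2 CPM after ATP. At 4 h the extract libraries held 15.7, 17.8 and 21.0 CPM and the ATP libraries 20.1, 16.2 and 17.4 CPM, which overlapped Ctrl. Here ATP 0 h was also above extract 0 h without overlap, but the share of all genes that did so was not counted. The log2 fold change of 4 h against 0 h was -0.48 (standard error 0.0822), and against Ctrl it was 0.30 at 0 h and -0.19 at 4 h.

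In irx2.L the 0 h groups overlapped Ctrl and both 4 h groups lay below it. The level was 10.5 CPM ± 0.774 in Ctrl, 10.4 ± 1.40 at extract 0 h and 11.5 ± 1.93 at ATP 0 h (SD, n = 3 each). At 4 h it was 8.66 CPM ± 0.883 after extract and 7.02 ± 0.662 after ATP (SD, n = 3 each). These 4 h groups did not overlap, by a small gap between 7.79 CPM (lowest extract library) and 7.77 CPM (highest ATP library). The share of all genes separated in this way was not counted. The ATP libraries did not overlap between the times, whereas 1 of the 3 extract libraries at 4 h lay within the range of extract 0 h. Averaged over stimuli, the log2 fold change was -0.49 (standard error 0.106) and a 95% interval from -0.71 to -0.26. Its unadjusted p-value was 0.000328 and its edgeR adjusted p-value 0.180. DESeq2 gave 0.0364, and the adjusted p-value ranged from 0.000208 to 0.549 over the alternatives. Among all genes tested, 9.75% had an unadjusted p-value under 0.05 in this comparison, against 2 of the 3 other copies. Reads may be divided between copies, so the other copies are not independent of the chosen rows.

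Against Ctrl, both 4 h groups had lower means in all 8 rows. Both 0 h groups had higher means in all but znf703.L, where both were lower, and irx2.L, where extract 0 h was at -0.01 on the log2 scale and ATP 0 h at 0.12. Averaged over stimuli, the log2 fold change of 4 h against Ctrl was -0.72 for znf703.L, -0.62 for tgif2.L, -0.57 for sox9.S and -0.55 for znf703.S. It was -0.43 for irx2.L and between -0.22 and -0.19 for the remaining rows. At 0 h it was highest in tgif2.L, at 0.31, and in irx2.S, and it was -0.08 in znf703.L and 0.05 in znf703.S. In 5 of the 8 rows every 4 h library lay below every Ctrl library, which 1.48% of all genes did. In sox9.L and irx2.S every 0 h library lay above every Ctrl library, which 0.744% of all genes did. Taken by stimulus, 5.68% and 4.47% of all genes had their 4 h libraries below Ctrl without overlap after extract and ATP, and 3.98% and 5.4% their 0 h libraries above it. Likewise 3.33% and 7.82% had every 4 h library below every 0 h library of the same stimulus. These values share their 0 h and 4 h libraries with the comparison that chose the rows, which favours low 4 h and high 0 h values, so they are given without a test.

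**Figure D2:**
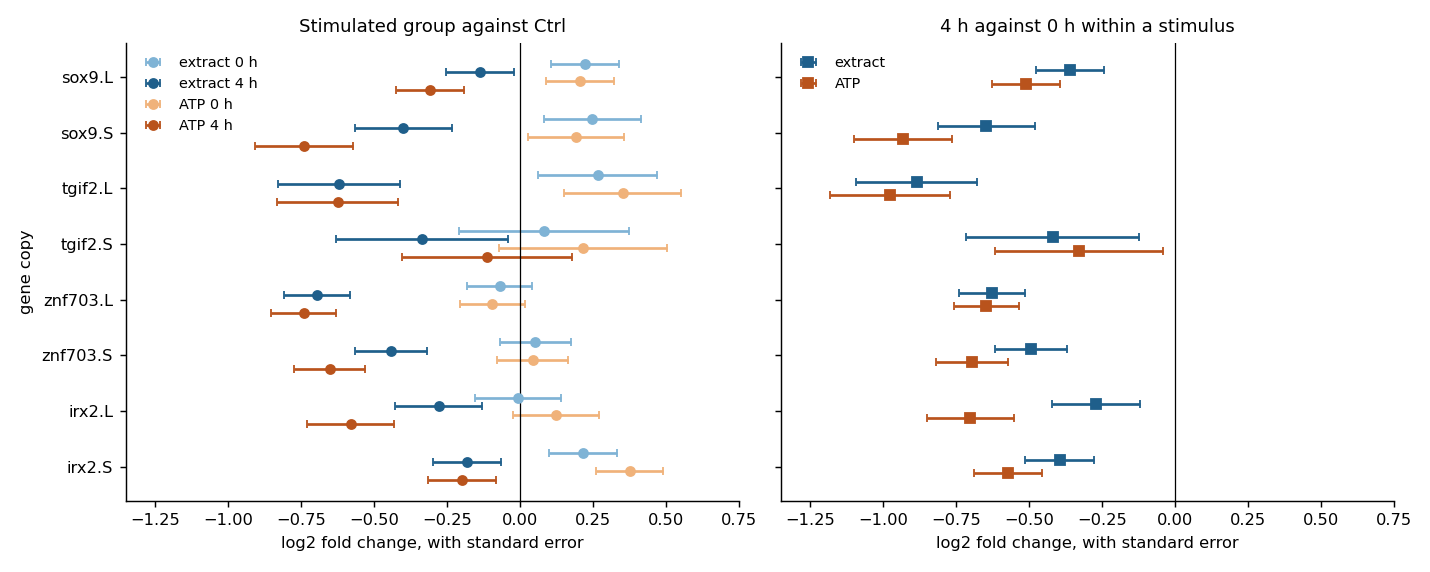
Log2 fold change with its standard error for each row: on the left each stimulated group against Ctrl, on the right 4 h against 0 h within extract and within ATP. All points on the right lie below 0, from -0.98 for tgif2.L after ATP to -0.27 for irx2.L after extract, and on the left the 0 h points of both znf703 copies lie within 0.1 of Ctrl.

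The mean of all 4 stimulated groups against Ctrl is a contrast orthogonal to 4 h against 0 h, as are the comparisons of extract with ATP and the interaction. Their fold changes were not used in the choice, but a choice by p-value also favours rows with a small estimated spread, which these tests use again. The p-values of the 5 chosen rows are thus not independent of the choice. The first of these contrasts asks whether Ctrl lies midway between the times. Of the 8 rows, 0 were called by edgeR's quasi-likelihood test, where 0% of all genes were. At an unadjusted p-value under 0.05 there were 2 rows, where 4.23% of all genes were. These were znf703.L, with 42.1 CPM in the stimulated groups against 54.3 CPM in Ctrl, and znf703.S, with 38.9 CPM against 45.3 CPM. Their log2 fold changes were -0.40 and -0.25, with standard errors of 0.0857 and 0.0949. The unadjusted p-values were 0.000289 and 0.0188, and both edgeR adjusted p-values were 1.00, so neither holds against the number of genes tested. In the authors' deposited surrogate-adjusted values, limma gave adjusted p-values of 0.00160 and 0.00858 for these rows, and called 799 genes in all. That fit did not count the surrogate variables already removed, so its p-values may be too small. Ctrl was close to the midpoint in sox9.L, at a log2 fold change of 0.00 with a 95% interval from -0.20 to 0.19, and in irx2.S, at 0.05 with an interval from -0.14 to 0.25. DESeq2 and limma-voom called 0 of the 8 rows.

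Extract and ATP did not differ detectably in any row. Averaged over both times, the log2 fold change of extract against ATP ranged from -0.18 (tgif2.S) to 0.20 (sox9.S). No row was called by edgeR, DESeq2 or limma, and 0 rows had an unadjusted p-value under 0.05, while 0% and 9.02% of all genes met these criteria. The interval for sox9.S ran from -0.05 to 0.45, so a level in the extract groups above that in the ATP groups by 0.45 on the log2 scale lies within the error.

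The interaction of stimulus and time asks whether the difference between 0 h and 4 h depended on the stimulus. It was called in 0 rows by edgeR, DESeq2 or limma, with 0 rows at an unadjusted p-value under 0.05, where 0% and 1.37% of all genes were. The estimate was largest for irx2.L, at -0.27 after extract and -0.70 after ATP, a difference of 0.43 with a standard error of 0.211. Its 95% interval ran from -0.02 to 0.88 and its edgeR adjusted p-value was 1.00. For znf703.L the difference was 0.02, with an interval from -0.32 to 0.36.

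The split of reads between copies was compared across libraries, since a row can fall when reads are assigned to its partner. In znf703 the L copy took 52.3% ± 0.939 at 0 h and 51.6% ± 2.67 at 4 h (SD, n = 6 each), which overlapped. In irx2 it took 30.1% ± 2.97 and 30.4% ± 4.17 (SD, n = 6 each). In sox9 the share of the L copy was 57.8% ± 2.70 at 0 h and 63.6% ± 5.50 at 4 h, and in tgif2 it was 74.9% ± 3.97 and 66.4% ± 4.46 (SD, n = 6 each). These last shifts went away from the copy that was chosen for being low at 4 h, so they carry the choice and are not tested. With the counts of both copies summed, the log2 fold changes of 4 h against 0 h were -0.77 for tgif2, -0.62 for znf703, -0.58 for sox9 and -0.49 for irx2, with standard errors of 0.136, 0.0754, 0.0709 and 0.0702. The sums include the rows chosen for being low at 4 h, so they carry the choice as well.

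**Figure D3:**
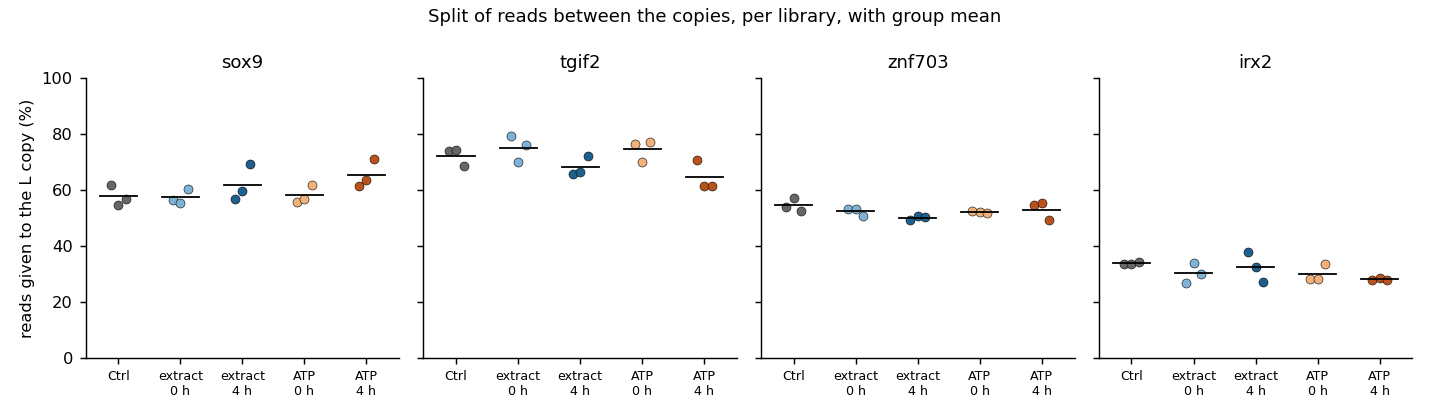
Share of each gene's reads given to its L copy (vertical axis, percent) in every library, with the group mean as a line. The share in znf703 stays between 49.2% and 57.0%, and that in sox9 reaches 71.0% in an ATP 4 h library.

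Across the 15 libraries the rows varied together to different degrees. The Pearson correlation of log2 CPM was highest between znf703.L and znf703.S, at 0.932, followed by tgif2.L with znf703.S at 0.895 and tgif2.L with irx2.S at 0.875. It was lowest between sox9.S and tgif2.S, at 0.298. After subtraction of group means the copies of znf703 correlated at 0.647 and those of tgif2 at 0.487, while those of sox9 gave -0.145 and those of irx2 -0.0519. These are descriptions over 15 libraries that share depth and group.

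The genes outside the set with the most similar pattern over the 15 libraries were taken from 20994 genes with a mean of at least 1 CPM. For znf703.S these were axin2.L and axin2.S, copies of a negative feedback gene of Wnt signalling, with Pearson correlations of 0.925 and 0.911, and smad7.L, an inhibitory Smad, at 0.922. The gene smad7.L was also among the most similar to tgif2.L, at 0.888, together with skida1.L at 0.924 and zfp36l1.S, an mRNA decay factor, at 0.884. For znf703.L they were xnf7.S at 0.932, the RNA helicase gene ddx6.S at 0.911 and the immediate early response gene ier5l.S at 0.908. For irx2.S they were foxj1.L, a regulator of motile cilia, at 0.905, the ligand gene bmp4.L at 0.902 and id2.S, an inhibitor of helix-loop-helix factors, at 0.898. For sox9.S they were alkbh3.L, a demethylase gene, at 0.897, the glycosyltransferase gene pomgnt1.L at 0.867 and zfp36l2.S, another mRNA decay factor, at 0.844. All 14 of these genes were lower at 4 h than at 0 h, with log2 fold changes from -0.69 (ier5l.S) to -0.16 (ddx6.S), which follows from likeness to rows chosen for being low at 4 h. With group means subtracted, the correlations ranged from 0.262 (ier5l.S with znf703.L) to 0.849 (skida1.L with tgif2.L).

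Related genes were read from 6 lists, with the set itself left out, in the comparison of 4 h with 0 h. None of the 153 listed rows tested was called by edgeR over all genes. DESeq2 called 8 of them, of which 6 were lower and 2 higher, and 82 genes over the whole table. In the authors' deposited surrogate-adjusted values limma called 33 of 195 listed rows, of which 16 were lower and 17 higher. Over all genes of those values it called 2536 of 28009. The 33 include msx1.S, smad7.L, meis2.L, rxra.L, rcor1.L and both copies of col2a1. Among neural plate border and neural crest factors, 14 of 36 tested rows had an unadjusted p-value under 0.05, of which 12 (33.3%) were lower at 4 h and 2 higher, while 4.86% of all genes were lower by this measure. The median log2 fold change of this list was -0.23, against 0.00 over all genes. The lists were chosen with earlier results of these data known, so these shares and medians are descriptions and not a test. Both copies of some genes are among the rows of this list, so its rows are not all separate genes. The 3 smallest p-values were those of msx1.S, hes4.S and id3.L. The homeobox gene msx1.S, a target of BMP signals, was at 62.6 CPM ± 11.4 at 0 h and 37.9 ± 6.63 at 4 h (SD, n = 6 each), with 60.1 ± 11.1 in Ctrl (SD, n = 3). Its log2 fold change was -0.72 (standard error 0.134) and an edgeR adjusted p-value of 0.0920. The repressor gene hes4.S had -0.75 and id3.L, another inhibitor of helix-loop-helix factors, -0.58, with edgeR adjusted p-values of 0.151 and 0.171. With the replicate block msx1.S, msx1.L, hes4.S, id3.L and id3.S were called, all lower, and without extract 4 h replicate 3 msx1.S, msx1.L, id3.L and myc.L were. DESeq2 called msx1.S, msx1.L, hes4.S, id3.L and myc.L, all lower, and without the filter on low counts msx1.S was called.

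**Figure D4:**
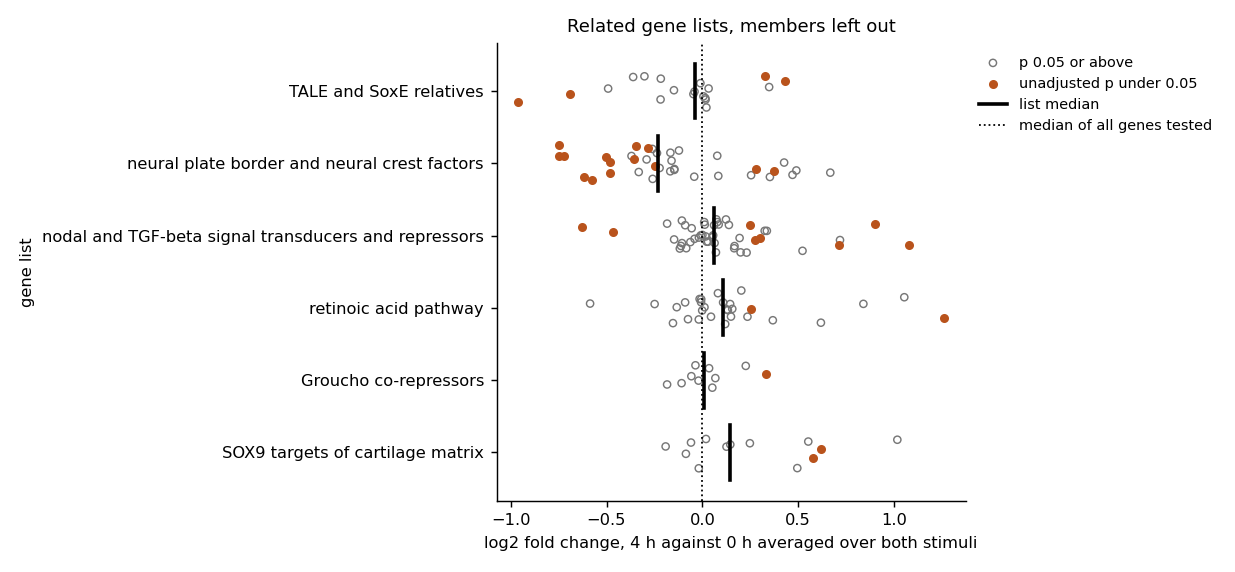
Log2 fold change of 4 h against 0 h averaged over both stimuli (horizontal axis) for each tested gene of 6 lists, with filled points for an unadjusted p-value under 0.05, a bar at the list median and a dotted line at the median of all genes. The neural plate border list lies to the left, with a median of -0.23, and the list of cartilage matrix targets to the right, with a median of 0.15. The lists were chosen with earlier results of these data known.

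Of 19 tested rows of other TALE and SoxE genes, 2 were lower and 2 higher at an unadjusted p-value under 0.05, with a median log2 fold change of -0.04. As a share, 10.5% of these rows were lower, against 4.86% of all genes, and 1176 of all 24052 genes were higher. In either direction the share was 21.1%, against 9.75% of all genes. The number of lower rows was 5 with the replicate block and 0 to 5 with a library left out, with 0 without extract 4 h replicate 2 and 5 without extract 4 h replicate 3. It was 1 without extract 0 h replicate 2, extract 4 h replicate 1, ATP 0 h replicate 1 or 3 or ATP 4 h replicate 1 or 2, and 4 without extract 0 h replicate 3. The relatives of tgif2 stayed near 0, at 0.03 for tgif1.L and 0.02 for tgif1.S with standard errors of 0.0994 and 0.123. The Meis homeobox genes meis2.L and meis1.S had log2 fold changes of 0.33 and 0.43, and irx4.L had -0.69 at a mean of 1.71 CPM at 4 h. Their edgeR adjusted p-values were 0.262, 0.396 and 0.486, and DESeq2 gave 0.0271 for meis2.L.

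In the nodal and TGF-beta list, the signal that Tgif2 restrains, 2 of 46 rows were lower and 6 higher at an unadjusted p-value under 0.05, with a median of 0.06. As a share, 4.35% of this list and 4.86% of all genes were lower. Over all 24052 genes, 1176 were higher by this measure. In either direction it was met by 17.4% of the list, against 9.75% of all genes. By sign alone, 32.6% of the list and 50.4% of all genes were lower. The rows that were lower at an unadjusted p-value under 0.05 were both copies of smad7, which is itself a feedback inhibitor of the pathway. The level of smad7.L was 20.8 CPM ± 2.05 at 0 h and 13.4 ± 1.66 at 4 h (SD, n = 6 each), without overlap, and 18.8 ± 3.77 in Ctrl (SD, n = 3). Its log2 fold change was -0.63 (standard error 0.113) and an edgeR adjusted p-value of 0.0712. It was called with the replicate block and without Ctrl replicate 2 or extract 4 h replicate 3, at adjusted p-values of 0.0132, 0.0341 and 0.0277. It was also called by DESeq2, at 0.000792, without the filter on low counts, at 0.0317, and by limma in the surrogate-adjusted values, at 5.14e-05. The log2 fold change of smad7.S was -0.47 and that of ski.S, a Smad co-repressor gene, 0.30, with edgeR adjusted p-values of 0.301 and 0.260, and DESeq2 gave 0.0345 for ski.S.

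The remaining lists showed few differences. In the retinoic acid list 2 of 29 rows were higher and 0 lower at an unadjusted p-value under 0.05. In either direction this was 6.9% of the list, against 9.75% of all genes. Of these 2, rxra.L, a nuclear receptor gene, had a log2 fold change of 0.25. The other was cyp26b1.L, a gene for an enzyme that degrades retinoic acid, at 1.26 (standard error 0.550), with 0.429 CPM ± 0.324 at 0 h and 0.998 ± 0.624 at 4 h (SD, n = 6 each). The log2 fold change of rdh10.S, a retinol dehydrogenase gene, was -0.25. Of 10 rows for Groucho and related co-repressors, only rcor1.L had an unadjusted p-value under 0.05 (10%, against 9.75% of all genes). Its log2 fold change was 0.33, while tle5.S and tle5.L had -0.18 and -0.11. The edgeR adjusted p-values of these 6 genes ranged from 0.330 (rcor1.L) to 0.686 (tle5.L).

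Of 13 rows for cartilage matrix genes that Sox9 activates in other vertebrates, 2 were higher and 0 lower at an unadjusted p-value under 0.05 (15.4% in either direction, against 9.75% of all genes). These were the copies of col2a1, the type II collagen gene, with log2 fold changes of 0.62 and 0.58 and edgeR adjusted p-values of 0.416 and 0.476. The level of col2a1.S was 39.1 CPM ± 19.0 in Ctrl (SD, n = 3), 21.4 ± 5.93 at 0 h and 33.0 ± 8.90 at 4 h (SD, n = 6 each). Next came col9a3.S at -0.19. A marker list of muscle and mesoderm also varied between libraries and groups, with summed levels of 23.2 to 228 CPM in Ctrl. The sums were 9.39 to 25.4 CPM at extract 0 h, 9.44 to 39.4 CPM at extract 4 h, 11.2 to 92.0 CPM at ATP 0 h and 127 to 267 CPM at ATP 4 h. For 4 h against 0 h, 4 of its 9 tested rows had an unadjusted edgeR p-value under 0.05, as did 9.75% of all genes, and 0 were called. Of its 18 rows 5 averaged under 0.05 CPM, among them both copies of myf5. Its part in the values of col2a1 or of the set was not tested.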

How the data were processed

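The libraries were made from total RNA with a stranded, ribosome-depleting protocol and read as single ends of 75 nt, per the labels. The authors deposited expected counts per gene from RSEM, per the file headers. The submitters' processing notes also name fastp, STAR and limma, without versions, and the genome build and annotation are not given in the sources used here, so no coordinates are printed. The authors also deposited a table of 28009 genes, which its name describes as log2 CPM adjusted for surrogate variables, for plotting. It served only as an alternative, fitted by limma with group means alone. That fit did not count the surrogate variables already removed, so its p-values may be too small. Of the expected counts 69.1% were whole, and all were rounded.

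Groups and replicate numbers came from the sample titles. Nothing says that replicates are separate batches of embryos, so p-values measure the spread between these pools. After edgeR's filterByExpr, 24052 genes were fitted with TMM factors, 1 coefficient per group over all 15 libraries and robust quasi-likelihood tests (edgeR 4.0.16, R 4.3.3), with Benjamini-Hochberg adjustment over all genes and a threshold of 0.05. Tests were two-sided. A standard error is the fold change (log2) over the square root of F. Log2 CPM used a prior count of 2, and fold changes 0.125. The fit was also run on simulated counts with planted changes, and the outcome of that run is not reported here. The alternatives tried were a replicate block, DESeq2 1.42.0, limma-voom (limma 3.58.1), RLE factors, no filter, the adjusted table, summed copies, summed extract 4 h replicates 1 and 2, and each library left out.

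The members and gene lists were chosen with earlier results of these data known. Named beside the members are, per list, the 3 genes with the smallest p-value at a mean of at least 1 CPM, and per chosen member the 3 most correlated genes. In the retinoic acid list 1 gene that this rule names is not reported here. The genes msx1.L, id3.S, myc.L, cyp26b1.L, tgif1.L, tgif1.S, tshz1.S and the marker genes named were added after their values were seen. Same-numbered libraries deviated together, with each of the 3 correlations above 0.1, in 5 of 10 pairs of groups, over a range from -0.187 to 0.494 in all pairs. Since the numbers pair ATP 0 h with ATP 4 h but not extract 0 h with extract 4 h by this measure, blocked values stand beside a result where they change its call.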

Additional observations from a re-analysis of the deposited data

How the results depend on the processing

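The direction of 4 h against 0 h held in every fit: all 176 log2 fold changes of the 8 rows under 22 settings were below 0. For the 5 chosen rows this sign carries the choice. The other copies, which came in with the chosen genes and not by their sign, were below 0 under each of these settings too. However, all fits reuse the same libraries, and reads may be divided between copies. The number of rows called in this comparison, 5 as reported, was 6 with the replicate block, 7 in DESeq2 and 7 in the surrogate-adjusted values. The count was 1 with extract 4 h replicates 1 and 2 summed, 3 of 4 genes with copies summed, and 1 to 6 with a library left out. It was 1 without each of the extract 0 h libraries, without extract 4 h replicate 1 or 2 and without ATP 0 h replicate 1. It was 2 without ATP 0 h replicate 2 or 3 and 3 without ATP 4 h replicate 3. Of the 8 rows, only znf703.L kept its call whichever of the 15 libraries was dropped. That row was chosen on this same comparison and the fits share its libraries, so its calls carry the choice and are not a test. The count over all genes, 14 as reported, was 42 with the replicate block, 82 in DESeq2, 2536 in the authors' surrogate-adjusted values, 7 with copies summed, 3 with the summed replicates and 3 to 37 with a library left out, 37 being without extract 4 h replicate 3. In the listed related genes 0 were called as reported, 6 with the replicate block and 0 to 5 with a library left out. DESeq2 called 8, the fit without the filter on low counts 2 of 202 tested rows, and the surrogate-adjusted values 33 of 195 (16 lower and 17 higher). With limma-voom, RLE factors or the summed replicates 0 were called. The last 6 of these settings were applied to the lists after seeing the data.

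For the stimulated groups against Ctrl, DESeq2 called 1 gene, and the surrogate-adjusted values 799, of which 2 were in the set, against 0 as reported. For extract against ATP the counts were 1 with the replicate block, 3 in DESeq2, 1503 in the surrogate-adjusted values and 0 to 1 with a library left out, again against 0, and for the interaction 16 in the surrogate-adjusted values against 0. Besides those named above, the replicate block changed no call in the set. The cause of these differences was not tested. The rows with the fewest counts were tgif2.S, with 20 to 54 per library, and tgif2.L, with 45 to 126.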
